A study of Mus musculus with 6 samples.

Results

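The genes described here are the protein-coding neighbours of Igf1 on mouse chromosome 10, the gene that the study's mouse model deletes in FAPs, short for fibro-adipogenic progenitors, which are mesenchymal cells resident in muscle. They were chosen by position and by their summed raw counts. A gene was included if its start lay within about 6 Mb of Igf1 and if its counts over the 6 libraries summed to 60 or more. Igf1 itself and Timp3 were left out by the rule. Of 84 protein-coding genes of the stretch, 58 met it, of 43432 genes in all, with 31 before and 27 after Igf1. The first was Zfp873, starting at 82048123, and the last Metap2, ending at 93897093 (mm10). The summed count does not use the groups, but Hal was named in the rule with its values already known, so Hal is described without a test.

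The study asked what insulin-like growth factor I made by FAPs does for these cells and for muscle. There were 3 libraries titled control and 3 titled FID, made from total RNA labelled skeletal muscle, and all 6 carried D3 in their titles. The labels spell out neither FID nor D3, and they do not give the strain, the alleles of either group or the driver of the deletion. The extraction protocol covers both muscle and isolated FAPs without saying which was used here. Mice of both groups fall under 1 protocol of tamoxifen at 100 ug per g for 5 days, begun at 12 to 13 weeks of age and followed by at least 1 week without it, and both sexes were used. Whether the libraries of a group are separate animals is not stated, so the p-values describe only the spread between libraries, which may be technical.

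Igf1 encodes a secreted hormone that acts on the cells that make it and on their neighbours. Genes close to a targeted locus are looked at in such models because neighbouring stretches of a chromosome are inherited together. When an allele made in one inbred strain is bred into another, flanking genes stay of donor origin until recombination separates them, and such a stretch is called a passenger interval. Its genes need share no function, and those around Igf1 range from chaperones to enzymes of amino acid breakdown.

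Igf1 was not lower in the libraries labelled FID. Its levels, in read counts scaled by library size with TMM factors (CPM), were 134, 60.3 and 106 across control 1, 2 and 3, against 109, 107 and 81.4 across FID 1, 2 and 3. Counts per gene do not show which exons were read or which cells made the transcript, and the deletion was not tested. Groups are therefore called by their labels. Gene counts summed to between 5201853 and 10093757 per library, lowest in control 1. The 8 myofibre markers summed to between 6.07 and 63.6 CPM, against 30920 to 68105 CPM for 8 FAP and fibroblast markers, so fibre transcripts were scarce for samples labelled muscle.

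Hal was almost absent from a single control library. Hal encodes histidine ammonia-lyase, which removes ammonia from histidine to form urocanate and is best known from liver and skin. It lies on the plus strand at 93488768 to 93519304 (mm10; ENSMUSG00000020017), 5.63 Mb after the start of Igf1. Hal had 126, 121 and 0.877 CPM in the control libraries and 241, 408 and 314 CPM in the FID libraries, in the order of library numbers. Control 3 had almost none, control 1 and 2 lay close together, and every FID library lay above them. The raw counts were 640, 1200 and 9 for control and 2142, 3893 and 2912 for FID. The 9 reads of control 3 have a 95% exact Poisson interval of 4.12 to 17.1 reads, or 0.401 to 1.67 CPM, which covers counting error only. Control 3 was 138-fold below the next lowest library, although it was the deepest of the 6. The mean was 82.9 ± 71.1 CPM over the control libraries and 321 ± 83.7 CPM over those labelled FID (SD, n = 3), a ratio of 3.87. Without control 3 the control mean was 124 CPM and the ratio 2.59. Among the 12881 genes that passed the filter on low counts, Ifi202b alone had a wider gap below the other 5 libraries in control 3.

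The reference sequences around 3 start sites are shown because Hal and Tdg, near opposite ends of the stretch, both singled out control 3, whereas Amdhd1, the pathway neighbour right beside Hal, did not. Each run covers 250 bases before and 50 bases after the RefSeq start (build GRCm38.p6, the assembly of mm10) and reads 5′ to 3′ along the gene. Capitals mark matches to any of 3 motifs, on either strand. The first motif searched was TATAAA. The second was CCAAT, which reads ATTGG in reverse. The third was GGGCGG, whose reverse is CCGCCC. The Hal run lies on the plus strand at chr10:93488518-93488817, the Amdhd1 run on the minus strand at chr10:93539984-93540283 and the Tdg run on the plus strand at chr10:82629588-82629887.
Hal: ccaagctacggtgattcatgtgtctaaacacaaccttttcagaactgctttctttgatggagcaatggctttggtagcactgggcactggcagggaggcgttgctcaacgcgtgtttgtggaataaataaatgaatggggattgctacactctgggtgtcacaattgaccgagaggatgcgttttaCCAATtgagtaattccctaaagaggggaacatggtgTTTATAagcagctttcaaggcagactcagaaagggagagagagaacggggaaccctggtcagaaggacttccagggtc
Amdhd1: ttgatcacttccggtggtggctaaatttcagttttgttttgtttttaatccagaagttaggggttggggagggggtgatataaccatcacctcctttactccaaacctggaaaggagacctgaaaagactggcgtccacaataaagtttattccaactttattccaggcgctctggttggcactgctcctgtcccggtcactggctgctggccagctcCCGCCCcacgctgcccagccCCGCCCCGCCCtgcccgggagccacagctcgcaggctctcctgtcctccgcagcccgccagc
Tdg: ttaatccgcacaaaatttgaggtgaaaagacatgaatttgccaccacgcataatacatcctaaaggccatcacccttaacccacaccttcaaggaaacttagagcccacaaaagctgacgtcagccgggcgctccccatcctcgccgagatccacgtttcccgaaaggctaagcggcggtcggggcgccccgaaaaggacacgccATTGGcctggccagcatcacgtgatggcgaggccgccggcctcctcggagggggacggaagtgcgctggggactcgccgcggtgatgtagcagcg

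The start regions of these genes differ in letters. That of Hal holds TATAAA in reverse 28 bases before the start, CCAAT 64 bases before it, and 7 CG pairs. Amdhd1 has 3 copies of GGGCGG in reverse, of which the last share a base, and 12 CG pairs. Tdg has 1 CCAAT in reverse, 45 bases before the start, and 26 CG pairs. RefSeq start regions were matched for 51 of the 58 members, and TATAAA was found in those of 2 members, Hal and Washc4. CCAAT was found in those of 26 members and GGGCGG in those of 34. A member with several regions counts once here. Of all 32851 RefSeq start regions of this length, 13.6% hold TATAAA, 37.4% CCAAT and 35.7% GGGCGG. The median number of CG pairs was 24 in the members' regions and 7 in all regions. Members are protein-coding genes selected on read counts and the 32851 regions were not so selected. These comparisons are therefore no result about the flank. These letters are the reference genome's and not the alleles of these mice.

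The genes on either side of Hal did not share its gap in control 3. Lta4h, leukotriene A4 hydrolase, which makes the chemoattractant leukotriene B4, lies just before Hal. It had 93.8, 87.7 and 84.2 CPM in the control libraries and 94.0, 72.2 and 81.4 CPM in the FID libraries, with overlapping groups. Amdhd1, imidazolonepropionase, which acts later in the same breakdown of histidine, lies just after Hal on the minus strand at 93523338 to 93540033. It had 1, 9 and 10 reads in control and 15, 26 and 21 reads in FID, or 0.197, 0.911 and 0.975 CPM against 1.69, 2.72 and 2.26 CPM. Its groups did not overlap, and control 3 was the highest control library for Amdhd1 where it was the lowest for Hal. The log2 fold change of Amdhd1 was 1.54 (SE 0.48, adjusted p 0.179 by edgeR). The single read of control 1 lies below the 3 reads that a count of 0 allows.

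The rest of the pathway was barely detected. Uroc1, urocanate hydratase, had 3 reads over all libraries, and Ftcd, which ends the pathway, had between 1 and 6 reads per library. Hdc, which turns histidine into histamine instead, had 150, 117 and 88 reads in control and 123, 354 and 119 reads in FID. Of the liver markers Ttr had no read, and the list summed to at most 0.487 CPM in any library. Of the 7 skin keratinocyte markers Flg had no read, and Krt5 and Krt14 had reads in control 1 alone. Krt10 had 9, 28 and 35 reads in control and 24, 15 and 18 in FID, Lor had between 2 and 12 reads in every library, and the list summed to 3.44 to 8.09 CPM in control and 2.10 to 3.15 CPM in FID. The part of such cells in the values of Hal was not tested.

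Tdg set control 3 apart in the other direction, near the opposite end of the flank. Tdg encodes thymine DNA glycosylase, a repair enzyme that removes mismatched thymine and takes part in active DNA demethylation. It lies on the plus strand at 82629828 to 82650799 (ENSMUSG00000034674). Tdg had 14.6, 15.1 and 36.7 CPM in the control libraries and 10.8, 10.5 and 10.2 CPM in the FID libraries. Control 3 was 2.43-fold above the next library, control 1 and 2 were close to each other, and the FID libraries lay together below both. The log2 fold change was -1.09 (SE 0.36, adjusted p 0.190 by edgeR), and -0.48 without control 3 (edgeR adjusted p 0.197). By its gap above the other libraries Tdg ranked 4 of 12881 genes in control 3. Over the 6 libraries its Pearson correlation with Hal was -0.99 on the log2(CPM + 0.5) scale, a description of 6 points in which control 3 is the extreme of both. Its link to control 3 was noticed after its values were seen.

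Genes beside Tdg did not show its gap. Glt8d2, a glycosyltransferase gene whose end overlaps that of Tdg on the other strand, had 5.13, 9.21 and 8.38 CPM in the control libraries and 5.74, 7.02 and 5.50 CPM in the FID libraries. Its control 3 lay between the other control libraries. Hcfc2, a relative of the transcriptional coregulator HCF-1, had 23.3, 25.1 and 23.0 CPM in the control libraries and 26.2, 26.0 and 29.8 CPM in the FID libraries. Here control 3 was the lowest of all by a small margin, and the groups did not overlap. The kit marks strand, but the strand setting of the counting is not stated, and 11 members overlap another protein-coding gene, so reads at such overlaps are uncertain.

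**Figure D1:**
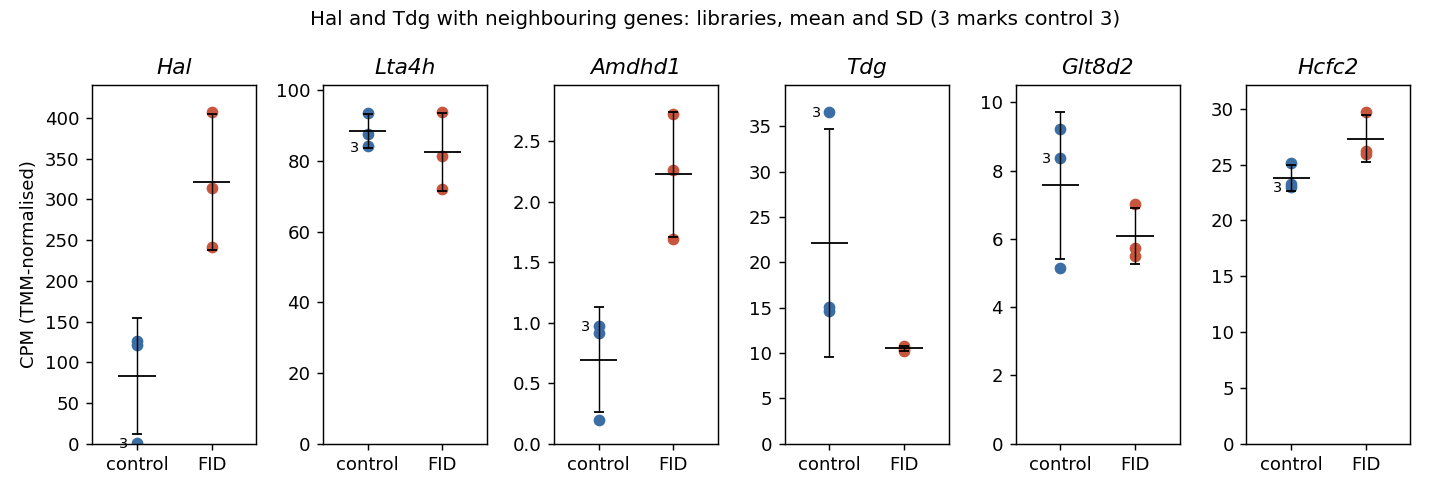
TMM-normalised CPM of Hal, Tdg and neighbouring genes, one point per library, with the mean (bar) and SD (whiskers) of 3 libraries per group and control 3 marked by its number. In control 3 Hal is at 0.877 CPM and Tdg at 36.7 CPM, whereas Lta4h, Amdhd1, Glt8d2 and Hcfc2 have control 3 close to another control library.

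Ifi202b, an interferon-inducible gene of chromosome 1 that is known to be silent in some inbred strains, was also missing from control 3. It had 383, 1195 and 0 reads in control and 2044, 2346 and 2408 reads in FID. As with Hal, control 1 and 2 lay between control 3 and the FID libraries. The other tested genes of the list of strain-dependent transcripts, Nnt, Casp4 and Glo1, had no such gap. Nnt had 168, 558 and 293 reads in control and 287, 296 and 387 reads in FID. None of the 4 passed the adjusted test of edgeR or had an unadjusted p under 0.05. The labels give no strain, and the part of strain in these values was not tested.

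Most members were steadier between libraries. The highest library was less than 2-fold above the lowest in 36 of the 58. A library was counted as standing apart if it lay more than 1 log2 unit beyond the nearest of the other 5 on the log2(CPM + 0.5) scale, a measure chosen after the values were seen. This held for 5 members, or for 4 of 57 (7.02%) without Hal, whose values were known when the rule was written, against 4.66% of 558 other tested genes of chromosome 10 and 4.68% of all genes tested. They were Hal and Tdg in control 3 and Zfp938, Nuak1 and Amdhd1 in control 1. With a gap of 1.5 Hal alone was left, and with a pseudocount of 2 CPM Hal and Tdg. Zfp938, a zinc-finger gene, had 1.38, 4.15 and 4.87 CPM in the control libraries and 4.39, 3.88 and 3.99 CPM in the FID libraries. Nuak1, a kinase related to AMPK, had 74.8, 34.7 and 34.8 CPM in the control libraries and 36.7, 32.5 and 23.8 CPM in the FID libraries. In both, control 1 stood apart, low for Zfp938 on 7 reads and high for Nuak1 by a gap of 1.02 log2 units.

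**Figure D2:**
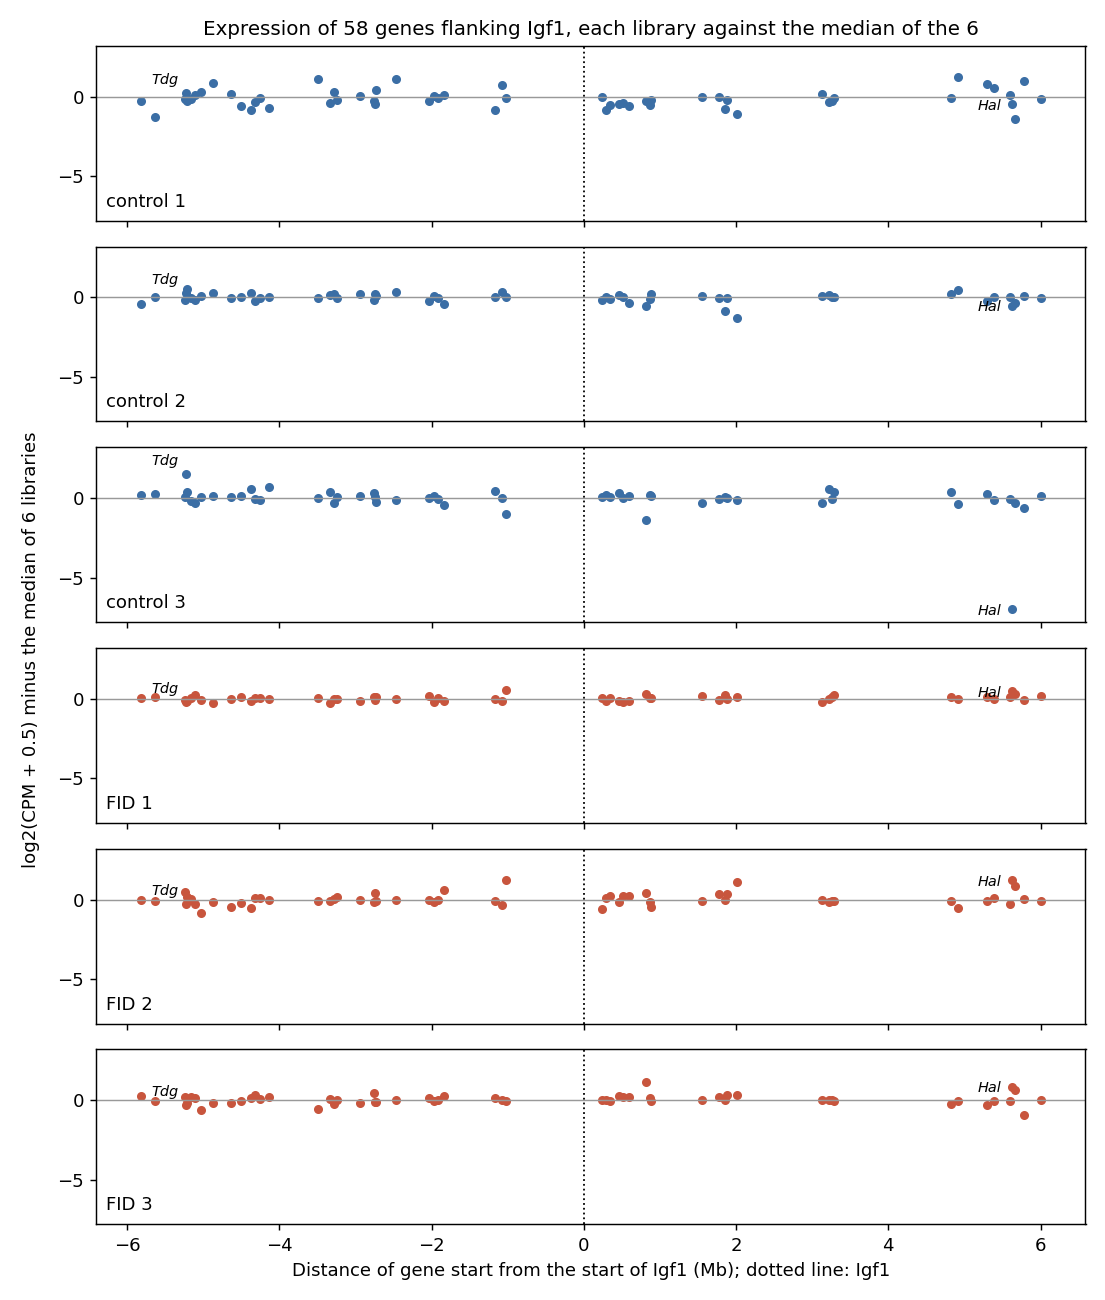
Each point is one of 58 genes, placed by the distance of its start from that of Igf1 (Mb), with its log2(CPM + 0.5) in the library minus the median of the 6 libraries. In control 3 Hal lies far below all other genes, followed from the bottom by Spic and Stab2, and Tdg is the highest.

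Control 1, the shallowest library, was at an end of the order most often. It was the lowest library for 24 members (41.4%, against 26.6% of all genes tested) and the highest for 13 (22.4%, against 29.0%). Control 3 was the highest for 15 (25.9%, against 16.5%) and the lowest for 13 (22.4%, against 18.5%). The median deviation of the members from the median library was -0.14 on the log2 scale in control 1 and between -0.044 and 0.054 in the others.

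**Figure D3:**
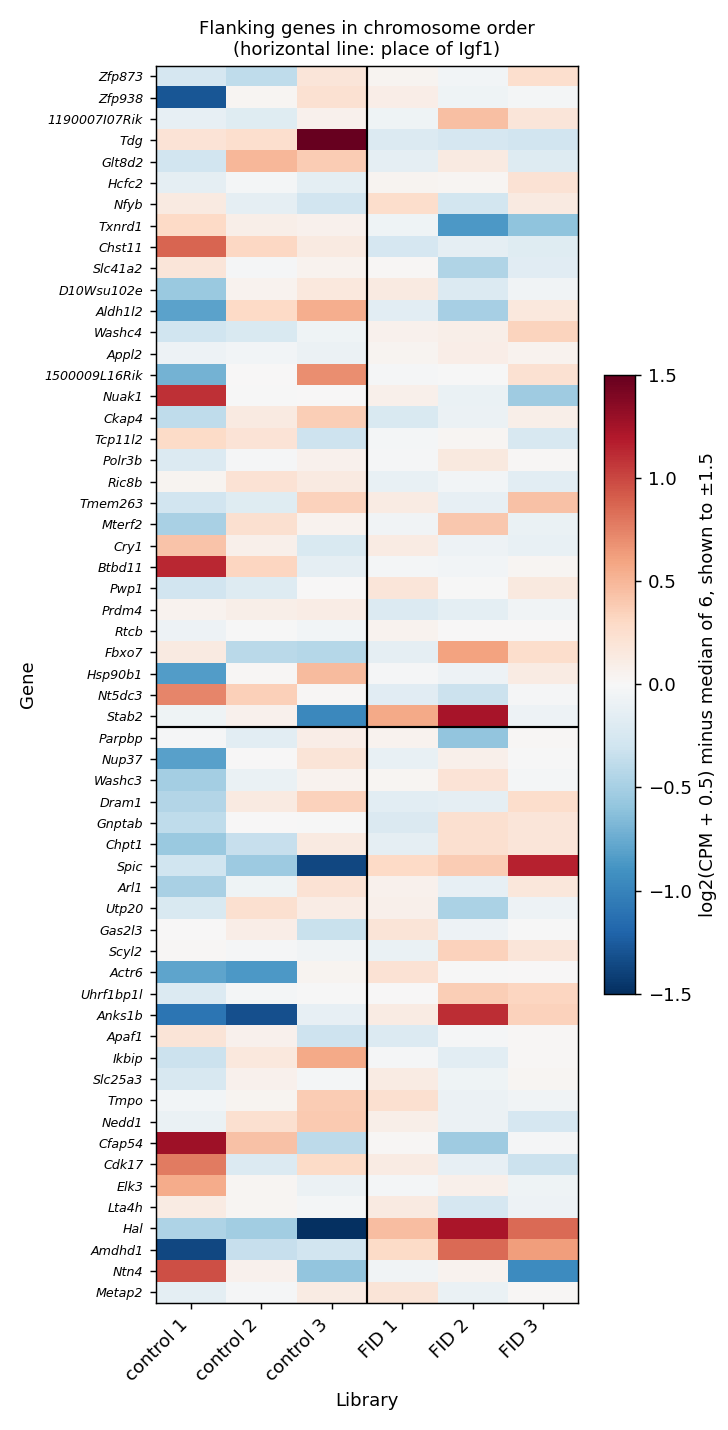
The 58 genes in chromosome order (rows) by library (columns), coloured by log2(CPM + 0.5) minus the median of the 6 libraries, with the scale shown to 1.5 either way and a horizontal line at the place of Igf1. Hal and Tdg in control 3 are the darkest cells of that column, and the genes listed next to them are pale there or differ less.

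Between the groups, the members' counts were close to those of all genes. None of the 57 members other than Hal passed the quasi-likelihood test of edgeR adjusted over all 12881 genes, and no gene at all did (0%). An unadjusted p under 0.05 was reached by 8 of the 57 (14.0%), against 19.0% of all genes tested. Of the 8, 4 were higher in FID, where 9.81% of all genes were, and 4 were lower, where 9.21% were. DESeq2 called 1 member, Spic, of 51 with an adjusted p, against 6.30% of all genes (3.89% higher and 2.41% lower in FID). The groups did not overlap in 14 of the 57 (24.6%), against 25.3% of all genes. Of the 14, 8 were higher in FID, against 13.0% of all genes, and 6 lower, against 12.3%. The median log2 fold change was 0.046 over the members and -0.019 over all genes, and the median size of the change 0.23 against 0.25. Without control 3, 13 members had an unadjusted p under 0.05 (22.8%, against 20.9% of all genes in the same setting) and 27 had groups that did not overlap (47.4%, against 39.9%). Without FID 1, 23 did not overlap (40.4%, against 41.0%), and without FID 2, 4 had an unadjusted p under 0.05 (7.02%, against 10.1%). Shares near those of all genes are no result about the flank.

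Zones by distance from Igf1 are given as a description, and no trend with distance was tested. Hal, which lies in the far zone after Igf1, is left out of these counts and medians. Within 3 Mb, 1 of 12 members before Igf1 (8.33%) and 2 of 14 after it (14.3%) had an unadjusted p under 0.05. Farther out the counts were 4 of 19 before (21.1%) and 1 of 12 after (8.33%), against 19.0% of all genes tested. The median log2 fold change was -0.071 in the far and 0.046 in the near zone before Igf1, and 0.18 in the near and -0.15 in the far zone after it. After Igf1, 11 of the 14 near members and 3 of the 12 farther members had a log2 fold change above 0, against 47.8% of all genes tested. The median was thus higher in the near than in the far zone on either side. Of the nearest members, Stab2, Nt5dc3 and Hsp90b1 precede Igf1 and are given with their groups below. Parpbp, Nup37 and Washc3 follow it. Nup37, of the nuclear pore, had 9.28, 16.8 and 19.2 CPM in the control libraries and 15.4, 17.7 and 16.6 CPM in the FID libraries. Washc3, a subunit of the endosomal WASH complex, had 23.3, 31.2 and 34.7 CPM in the control libraries and 34.1, 38.4 and 32.6 CPM in the FID libraries. In both genes the groups overlapped and control 1 was the lowest library.

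**Figure D4:**
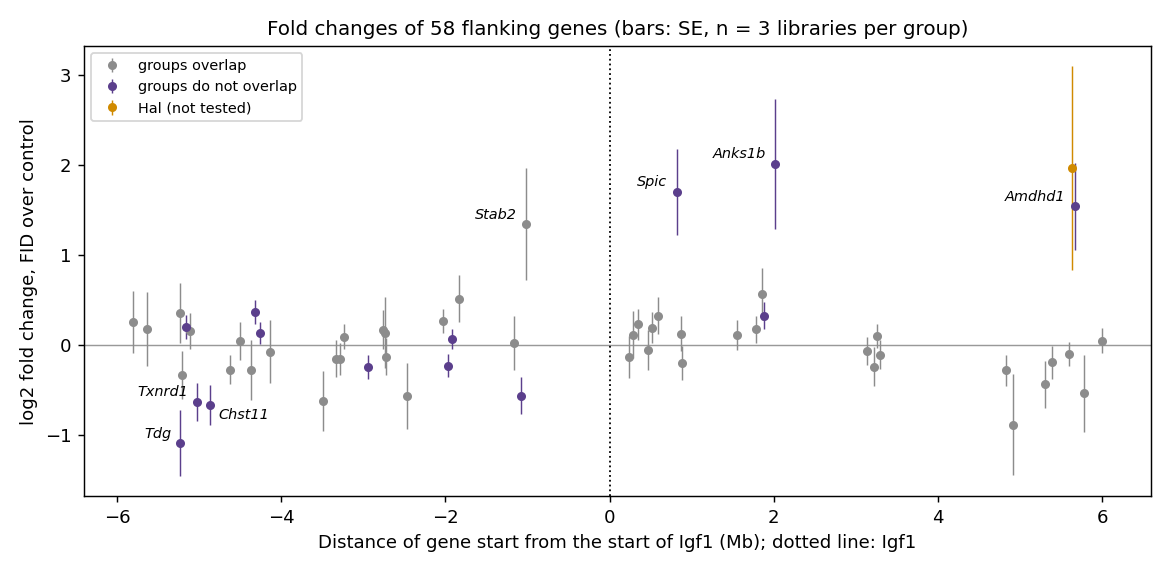
Log2 fold change of FID over control with its SE for each of 58 genes (3 libraries per group), placed by distance from Igf1 in Mb and coloured by whether the groups overlap. The widest values, those of Anks1b, Hal, Spic, Amdhd1 and Stab2, lie at different distances from Igf1, and except for Hal these genes had few reads.

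The immune list held Spic, the member with the smallest p. Spic, a transcription factor of iron-recycling macrophages, lies 0.817 Mb after the start of Igf1. It had 1.78, 1.42 and 0.585 CPM in the control libraries and 2.92, 3.14 and 5.71 CPM in the FID libraries, and the groups did not overlap. The log2 fold change was 1.70 (SE 0.48, adjusted p 0.158 by edgeR), and DESeq2 gave an adjusted p of 0.0428. Stab2, a scavenger receptor of sinusoidal endothelium, had 0.987, 1.11 and 0.292 CPM in the control libraries and 1.80, 3.14 and 0.970 CPM in the FID libraries, with overlapping groups. Both were lowest in control 3. In these libraries the 8 macrophage markers summed to 4438, 4383 and 2948 CPM for control and 8460, 7248 and 5748 CPM for FID, again with control 3 lowest. All 8 were detected with a log2 fold change above 0, against 47.8% of all genes tested. Of these markers, 5 had an unadjusted p under 0.05, where 9.81% of all genes tested were higher in FID. Their part in the values of Spic was not tested, and in bulk RNA fewer cells of a type and less RNA per cell cannot be told apart. The members most like Hal over the 6 libraries were Spic, Stab2, Gas2l3 and Appl2, with Pearson correlations of 0.84, 0.81, 0.78 and 0.72. These describe 6 points in which control 3 is the extreme of Hal, and each of these genes was lowest there. Stab2 had 3 reads in control 3, no more than a count of 0 allows. For Gas2l3, a cytoskeletal linker, the levels were 28.2, 30.3 and 22.3 CPM against 32.3, 26.6 and 28.1 CPM. For Appl2, an endosomal adaptor, they were 23.3, 23.9 and 23.1 CPM against 25.3, 26.3 and 25.5 CPM, so both spanned a far narrower range than Hal.

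Among genes of redox control and transport, 1 of 4 had an unadjusted p under 0.05, against 19.0% of all genes tested. This was Txnrd1, the cytosolic thioredoxin reductase, which keeps thioredoxin reduced. It had 234, 202 and 200.03 CPM in the control libraries and 181, 104 and 125 CPM in the FID libraries. Every FID library lay below every control, with FID 1 nearest to the controls, and the log2 fold change was -0.63 (SE 0.21, adjusted p 0.191 by edgeR). Slc25a3, the mitochondrial phosphate carrier, averaged 379 ± 39.9 CPM over the control libraries and 406 ± 28.0 CPM over those labelled FID (SD, n = 3). Tmem263, a membrane protein, had 53.9, 57.9 and 83.9 CPM in the control libraries and 71.9, 60.1 and 89.0 CPM in the FID libraries. Aldh1l2, a mitochondrial enzyme of folate metabolism from the amino acid list, had 37.3, 81.1 and 96.0 CPM in the control libraries and 58.6, 46.1 and 73.3 CPM in the FID libraries. All 3 overlapped between groups.

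The members most abundant per length, Hsp90b1, Ckap4 and Arl1, came from the list of the secretory route. Mean levels per kb of exon were 238 CPM for Hsp90b1, the chaperone GRP94 of the endoplasmic reticulum, 168 CPM for Ckap4, a membrane protein of that compartment, and 114 CPM for Arl1, a GTPase of the Golgi. The other members of the list had lower levels per kb than Slc25a3 and Rtcb of other lists. Hsp90b1 had 535, 976 and 1339 CPM in the control libraries and 945, 911 and 1047 CPM in the FID libraries. The control libraries spread on both sides of FID, and the log2 fold change was 0.03 (SE 0.30, adjusted p 0.971 by edgeR). Chst11, which sulphates chondroitin chains, had 28.8, 19.3 and 17.1 CPM in the control libraries and 12.9, 14.1 and 13.7 CPM in the FID libraries. Its groups did not overlap, control 1 was the highest, and the log2 fold change was -0.66 (SE 0.22, adjusted p 0.183 by edgeR). It was the only one of 7 members of this list with an unadjusted p under 0.05, against 19.0% of all genes tested. The 8 FAP markers, led by collagens, were all lower in FID. Of the 8, 5 had an unadjusted p under 0.05, where 9.21% of all genes tested were lower in FID. These markers summed to 60206 to 68105 CPM in control and 30920 to 45246 CPM in FID. Their part in the values of Chst11 and Txnrd1 was not tested.

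In the cell death, autophagy and ubiquitin list, 1 of 6 genes had an unadjusted p under 0.05, against 19.0% of all genes tested. This was Nt5dc3, related to nucleotidases, with 49.3, 38.2 and 29.8 CPM in the control libraries and 26.3, 23.6 and 29.3 CPM in the FID libraries. The groups did not overlap, but control 3 and FID 3 nearly met, and the log2 fold change was -0.56 (SE 0.20, adjusted p 0.209 by edgeR). Apaf1, the core of the apoptosome, averaged 79.4 ± 13.8 CPM over the control libraries and 75.9 ± 6.28 CPM over those labelled FID (SD, n = 3). Dram1, a p53 target of lysosomes, averaged 91.9 ± 24.3 CPM over the control libraries and 88.9 ± 15.4 CPM over those labelled FID (SD, n = 3). Fbxo7, part of a ubiquitin ligase, had 13.6, 9.21 and 9.07 CPM in the control libraries and 11.1, 19.0 and 14.9 CPM in the FID libraries, with overlap. Uhrf1bp1l had 29.2, 33.0 and 33.5 CPM in the control libraries and 34.1, 43.8 and 42.4 CPM in the FID libraries without overlap (edgeR adjusted p 0.281). Washc4, another WASH complex subunit outside these lists, had 55.7, 58.8 and 65.5 CPM in the control libraries and 72.1, 73.0 and 86.7 CPM in the FID libraries. Its groups did not overlap, and the log2 fold change was 0.36 (SE 0.13, adjusted p 0.205 by edgeR).

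Of 9 clock, transcription and chromatin genes, Tdg alone had an unadjusted p under 0.05, against 19.0% of all genes tested. Prdm4, a zinc-finger factor, had 30.4, 31.1 and 31.7 CPM in the control libraries and 25.3, 26.3 and 28.0 CPM in the FID libraries without overlap (edgeR adjusted p 0.352). Elk3, an ETS factor, had 177, 124 and 113 CPM in the control libraries and 118, 128 and 116 CPM in the FID libraries, where control 1 is the high library. Polr3b, a subunit of RNA polymerase III, averaged 30.9 ± 3.00 CPM over the control libraries and 33.1 ± 2.04 CPM over those labelled FID (SD, n = 3).

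The list named for replication, mitosis and the nuclear envelope also holds genes of other roles, such as Rtcb and Pwp1. None of its 10 genes had an unadjusted p under 0.05, against 19.0% of all genes tested. With so few genes this is no result about the list. Rtcb, the tRNA ligase, averaged 141 ± 3.87 CPM over the control libraries and 147 ± 2.98 CPM over those labelled FID (SD, n = 3). Its groups did not overlap, although the log2 fold change was only 0.07 (SE 0.11, adjusted p 0.777 by edgeR). Pwp1, of ribosome assembly, averaged 35.6 ± 3.86 CPM over the control libraries and 42.9 ± 2.95 CPM over those labelled FID (SD, n = 3), with overlap. Tmpo, a lamina-associated protein, averaged 116 ± 18.9 CPM over the control libraries and 108 ± 13.9 CPM over those labelled FID (SD, n = 3). Parpbp, which restrains recombination, had 9.08, 8.20 and 9.94 CPM in the control libraries and 9.56, 5.97 and 9.38 CPM in the FID libraries, with FID 2 lowest.

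The list named for matrix, adhesion, cytoskeleton and signalling also holds genes of other roles, such as Metap2. Of its 10 genes, 4 were highest in control 1 (Nuak1, Tcp11l2, Btbd11 and Ntn4), where 29.0% of all genes tested were. Ntn4, a netrin of basement membranes, had 50.3, 26.7 and 16.8 CPM in the control libraries and 24.5, 26.4 and 13.0 CPM in the FID libraries. Cfap54, a ciliary gene outside these lists, had 4.15, 2.13 and 0.975 CPM in the control libraries and 1.46, 0.838 and 1.40 CPM in the FID libraries. In control 1 the 6 endothelial markers summed to 2798 CPM, against 883 to 1349 CPM in the other libraries. Their part in the values of Ntn4, Elk3 and Nuak1 was not tested. Anks1b encodes a scaffold protein of synapses. It was the only one of 10 in this list with an unadjusted p under 0.05, against 19.0% of all genes tested. Its log2 fold change, the widest of the tested members, was 2.01 (SE 0.72, adjusted p 0.204 by edgeR). It rested on 1, 1 and 9 reads in control and 10, 26 and 13 reads in FID, so that control 3 and FID 1 were 1 read apart. Metap2, a methionine aminopeptidase, had 178, 195 and 216 CPM in the control libraries and 226, 184 and 200.08 CPM in the FID libraries, with overlapping groups. Tcp11l2 had 71.1, 67.2 and 46.9 CPM in the control libraries and 57.3, 59.2 and 49.4 CPM in the FID libraries, also with overlap.

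A further 24 protein-coding genes of the stretch had fewer than 60 reads, and 6 of them had none. The nearest below the minimum were Mybpc1, Fhl4 and Slc17a8 with 29, 26 and 25 reads, and the nearest above it were Anks1b, Mterf2 and Stab2 with 60, 74 and 74. Snrpf, a core protein of the spliceosome that every cell uses, was listed at 0. The files set aside reads that matched several places or overlapping genes, so the 0 of Snrpf is not evidence that its transcript was absent.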

How the data were processed

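Total RNA was measured in 3 control and 3 FID libraries, grouped by title. The authors deposited raw counts of reads per Ensembl gene. Per the submitters' processing notes, mm10 was the build, and Bowtie2 2.5.4, STAR, SAMtools, HTSeq, cutadapt and DESeq2 are named without role or order. No source used here gives the annotation release or the strand setting. Rows without a gene name held 9.60% to 10.9% of the reads of each deposited file and were dropped. They include reads that matched several places (3.11% to 4.49%) or overlapping genes (3.93% to 4.06%). GENCODE M21 gave positions and exon lengths for 42462 of 43432 identifiers (97.8%).

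Low counts were removed by edgeR 4.0.16 (filterByExpr, with a count of 10 and a total of 15), leaving 12881 genes and all 58 members. Libraries were scaled with TMM and groups compared by the quasi-likelihood test, two-sided, with group as the only term and p-values adjusted over all genes (Benjamini-Hochberg, 0.05). SE come from the fold change and its F statistic. A count of 0 allows up to 3 reads. Without molecular identifiers, intervals cover counting error only. Fits were tested on simulated data. With 3 against 3 libraries an exact permutation p cannot go below 0.10, and none is given.

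Named genes are Hal, Lta4h and Amdhd1, the 12 members with the smallest p, the 8 with the widest range over libraries (mean of 1 CPM or more), the 3 nearest to Igf1 on either side, the 3 with the most reads per kb in each list, and the 4 most correlated with Hal, 37 in all. Zfp938, Glt8d2 and Hcfc2 were added after their values were seen. Members and lists were chosen with earlier results of these data known. Tdg, entered in 2 lists by mistake, was kept in one. Alternatives were RLE scaling, DESeq2 1.42.0, limma-voom (limma 3.58.1), no filter, a replicate block, each library left out, starts within 3 Mb, a summed count of 600 or more and a pseudocount of 2 CPM.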

Additional observations from a re-analysis of the deposited data

How the results depend on the processing

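Hal was not tested. No tested member passed the adjusted test under any edgeR or limma-voom setting, and DESeq2 called 1. Over all genes DESeq2 called 764, edgeR with no filter on low counts 269, and edgeR with 1 library left out between 0 and 359 (without FID 1). Members at an unadjusted p under 0.05 numbered 3 of the 26 within 3 Mb, 5 of the 43 with a summed count of 600 or more (11.5% and 11.6%, against 19.0% of all genes and 22.1% of those with such a sum), and between 4 without FID 2 (7.02%, against 10.1%) and 13 without control 3 (22.8%, against 20.9%). Members whose groups did not overlap numbered 7 within 3 Mb (26.9%, against 25.3%) and, where fewer libraries have to be separated, between 15 without FID 3 (26.3%, against 30.01%) and 27 without control 3 (47.4%, against 39.9%). The members' median log2 fold change was -0.051 at a summed count of 600 or more and between -0.040 without control 1 and 0.13 without control 3. Members with 1 library standing apart numbered 1 with a gap of 1.5 and 2 with a pseudocount of 2 CPM, settings chosen after seeing the data. Counts of members by library stayed within 1.5 times under RLE scaling. The log2 fold change of Hal lay between 1.39 without control 3 and 3.95 with limma-voom. Of 37 named genes, 11 changed sign with 1 library left out, and the cause was not tested. Their lowest and highest log2 fold changes were -0.58 and 0.012 for Aldh1l2, -0.33 and 0.044 for Ckap4, -0.26 and 0.38 for Hsp90b1, -0.23 and 0.062 for Parpbp, -0.12 and 0.34 for Nup37, -0.24 and 0.14 for Dram1, -0.040 and 0.32 for Arl1, -0.18 and 0.040 for Apaf1, -0.20 and 0.052 for Tmpo, -0.30 and 0.026 for Elk3, and -0.016 and 0.14 for Metap2. With the replicate number as a block, 10 members had an unadjusted p under 0.05, 0 passed the adjusted test and the median was 0.066. Deviations of same-numbered libraries correlated at 0.012, -0.295 and 0.32, and those of differently numbered libraries at -0.367 to 0.312. With 3 libraries per group these values cannot show whether same-numbered libraries were paired. Depth limits members of few reads, such as Spic, Amdhd1, Stab2 and Anks1b.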

Other observations

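A feature of the stretch that is not protein coding was detected in control 3 alone. Mir7688, an annotated microRNA hairpin (ENSMUSG00000098679, mm10 chromosome 10, 93433107 to 93433162, plus strand), had 26 reads in control 3 and 0 in each of the other 5 libraries, where a count of 0 allows up to 3 reads. The 26 reads have a 95% exact Poisson interval of 16.98 to 38.1 reads. The hairpin ends 20.2 kb before the start of Lta4h and 55.6 kb before that of Hal. The counts are reads over the annotated interval and give no level of a mature arm. It was singled out after its values were seen. The RefSeq hairpin (GRCm38.p6) is shown because it is the interval over which these reads were counted.
Mir7688: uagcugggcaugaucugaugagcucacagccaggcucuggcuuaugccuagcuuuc
Of 66 genes of the stretch that are not protein coding, 44 had no read and none passed the filter on low counts.

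Control 3 lay more than 1 log2 unit below all other libraries in 78 of 12881 tested genes, spread over 17 chromosomes, and 23 of these are annotated as pseudogenes. It lay as far above them in 9 genes on 7 chromosomes. Such counts are not particular to control 3, since control 1 lay as far below the others in 72 genes and above them in 313. Of the 78 genes, 13 are on chromosome 17, among them the antigen presentation genes H2-Aa and H2-Ab1. A further 10 are on chromosome 1, among them Ifi202b, and 3 are on chromosome 10. The others lie elsewhere, such as Cd74 on chromosome 18 and C1qa on chromosome 4. Shares of all tested genes by chromosome or as pseudogenes were not computed. The counts by chromosome and of pseudogenes given here are therefore no result about place or type. Of the 9, 2 are on chromosome 10, Tdg and the noncoding Cep83os (94671025 to 94688576), which lies beyond the stretch. Cep83os was at 6.73 CPM in control 3 and between 0.675 and 1.38 CPM in the others. The genes below on chromosome 10 were Hal, the pseudogene Gm9855 and the ion channel gene Trpm2. Gm9855 was at 0 in control 3 and between 8.17 and 13.6 CPM elsewhere. Trpm2 was at 1.56 CPM in control 3 and between 4.05 and 5.28 CPM elsewhere. These genes were singled out after their values were seen.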
